A study of Mus musculus with 44 samples.

Results

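The genes described here are 10 components of the necroptosis pathway, Ripk1, Ripk3, Mlkl, Zbp1, Casp8, Fadd, Cflar, Tlr3, Ticam1 and Tnfrsf1a, followed across every genotype and diet of a mouse liver RNA sequencing study. They were chosen by name, as known components of the pathway, with earlier results of these data known. All 10 were found among the 35249 genes of the deposited count table, and all 10 were among the 14862 genes that passed the filter on low counts. Mice were wild type (WT), lacked Ripk3 (Ripk3KO, Ripk3-/-) or lacked Mlkl (MlklKO, Mlkl-/-). From 2 months of age they received normal chow (the control diet), a diet named CD-LFD or a diet named CD-HFD for 6 months, and the liver was then taken. The WT groups held 6 mice on each diet. The Ripk3KO groups held 6 mice on the control diet, 3 on CD-LFD and 4 on CD-HFD, and the MlklKO groups held 6, 4 and 3. The genotype labels do not say which exons were deleted, and the sex, the litter and the time of dissection of the mice are not given in the sources used here.

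Necroptosis is a lytic form of cell death. Death receptors such as TNF receptor 1, the RNA sensor TLR3 with its adaptor TRIF, and the Z-nucleic acid sensor ZBP1 can each bring RIPK3 into a complex, with RIPK1 in the TNF route, and RIPK3 then phosphorylates the pseudokinase MLKL, which permeabilises the plasma membrane. Caspase-8, recruited through FADD and paired with cFLIP, cleaves RIPK1 and RIPK3 and holds this route back. In the healthy liver, hepatocytes are known for very low RIPK3, while immune and other non-parenchymal cells carry more of it.

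The promoters of Mlkl, Tlr3 and Tnfrsf1a are shown because Mlkl and Tlr3 were among the genes that rose on CD-HFD and Tnfrsf1a differed between genotypes on the control diet. RefSeq's promoter table (build GRCm38.p6) held 9 of the 10 genes, with 10 promoters between them, and Zbp1 was not in it. Each window holds the 250 bases before the gene's start on its own strand, at chr8:111338206-111338455 on the minus strand for Mlkl, chr8:45410381-45410630 on the minus strand for Tlr3 and chr6:125349473-125349722 on the plus strand for Tnfrsf1a. Capitals mark a match to the kappaB consensus in Tlr3 and to the letters TTCNNNGAA, the GAS element bound by STAT factors, in Tnfrsf1a.
Mlkl: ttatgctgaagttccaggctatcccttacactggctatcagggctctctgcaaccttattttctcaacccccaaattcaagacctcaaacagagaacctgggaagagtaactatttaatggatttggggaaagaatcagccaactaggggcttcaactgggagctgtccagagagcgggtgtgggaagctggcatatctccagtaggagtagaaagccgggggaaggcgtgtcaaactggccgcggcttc
Tlr3: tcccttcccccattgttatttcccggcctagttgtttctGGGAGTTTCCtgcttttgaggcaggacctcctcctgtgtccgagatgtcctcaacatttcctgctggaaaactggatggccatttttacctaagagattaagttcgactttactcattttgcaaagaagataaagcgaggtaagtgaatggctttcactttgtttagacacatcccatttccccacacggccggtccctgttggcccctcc
Tnfrsf1a: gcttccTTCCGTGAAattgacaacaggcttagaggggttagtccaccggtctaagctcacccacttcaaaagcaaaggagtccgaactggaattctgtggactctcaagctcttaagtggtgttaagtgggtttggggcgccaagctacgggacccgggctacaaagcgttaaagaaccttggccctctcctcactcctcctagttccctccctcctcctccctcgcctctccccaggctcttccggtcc
The kappaB match GGGAGTTTCC began 211 bases before the Tlr3 start, and 3.90% of the 32851 promoters in the table held a match in a window of this length on either strand. The GAS match TTCCGTGAA began 244 bases before the Tnfrsf1a start, and 7.02% of all promoters held one. The only other of the 10 promoters with GAS letters was the second promoter of Ripk1, with 2 matches. Tlr3 was the only one with a kappaB match. The core of the interferon-stimulated response element, GAAA repeated after 2 bases of any kind, was in none of the 10 promoters, against 2.98% of all promoters. The windows of Mlkl and Ticam1 held no match to any of these motifs. Ticam1 also rose on CD-HFD in WT and differed between genotypes on the control diet, but its window is not shown. A match describes letters and not a bound site.

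Total counts per library ran from 2476268 to 12471844, apart from 1 WT CD-LFD library with 88204703. Levels below are CPM, counts relative to the library's TMM-scaled total, and p values measure only the spread between the mice of these groups. Hepatocyte markers were abundant in every library, with a summed level of at least 55640 CPM. The log2 ratio of the clock genes Arntl and Dbp, cut at a gap of 1.03, split the libraries into 2 sets. Every knockout library lay on the Dbp side. In WT, 4 of 6 control libraries, 6 of 6 CD-LFD libraries and 1 of 6 CD-HFD libraries lay on the Arntl side. Genotype and clock side therefore cannot be told apart on CD-LFD. The log2 ratio also differed within a side. On the Arntl side it was 0.105 to 2.73 in WT control and -2.68 to -0.28 in WT CD-LFD libraries. On the Dbp side it was -5.84 and -8.01 in WT control and -5.01 to -3.71 in MlklKO control libraries. Fits of 1 clock side therefore do not make the ratio equal between these groups. Reads of overlapping genes may be shared, since the strand setting of the counting is not given in the sources used here: 6.12% of the Fadd exon bases lie opposite Faddos, 7.32% of those of Tlr3 lie opposite Gm45542, and Ripk1 shares 6.12% with the pseudogene Gm17084 and 2.89% with Serpinb6a.

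The targeted genes check the labels. Ripk3 encodes the kinase that activates MLKL. It had 13 counts in all over the 6 Ripk3KO control libraries, at a lowest level of 0, a median of 0.158 and a highest of 1.26 CPM. In the WT control libraries it had 46 counts, at 0.511, 1.26 and 4.89 CPM for the lowest, the median and the highest. The Ripk3KO and WT control values overlapped because the library labelled Ripk3KO control replicate 5 carried 9 of the 13 counts. At 1.26 CPM this library stood at the WT median and above 3 of the 6 WT control mice, so its Ripk3 level goes against its label. On CD-LFD, Ripk3 had 1 count over the 3 Ripk3KO libraries (0, 0 and 0.0755 CPM) and 194 over the WT libraries (1.12 to 3.96 CPM). On CD-HFD it had 2 counts over the 4 Ripk3KO libraries (0.166, 0, 0 and 0.0853 CPM) and 170 over the WT libraries (2.34 to 4.44 CPM). No Ripk3KO library on either of these diets came near a WT library. The ratio of WT to Ripk3KO, from pooled counts with an exact interval at 95% that covers counting error only, was 4.46 (2.37 to 9.0) on the control diet, 36.4 (6.46 to 1446) on CD-LFD and 58.0 (15.8 to 483) on CD-HFD. The pooled WT CD-LFD total is mostly that of the 1 library with 88204703 counts, so the CD-LFD ratio weighs that mouse most. The means over mice on CD-LFD were 2.39 CPM in WT and 0.0252 CPM in Ripk3KO. On the control diet the edgeR log2 difference was -2.30 (SE 0.584, adjusted p = 0.0157). It was -3.54 (adjusted p = 0.00126) without the library labelled Ripk3KO control replicate 5, and the call was lost without WT control replicate 6 (-1.71, adjusted p = 0.128) and among Dbp-side libraries (-1.68, adjusted p = 0.301).

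Mlkl, the executioner of the pathway, was reduced but not absent in the MlklKO libraries. It stood at 1.46, 2.10 and 3.04 CPM (lowest, median and highest) in the 6 MlklKO control libraries and at 2.28, 5.38 and 6.15 CPM in WT. On CD-LFD the 4 MlklKO libraries had 4.16, 2.98, 3.37 and 3.43 CPM, and the WT libraries had 9.85 to 14.5 CPM. On CD-HFD the 3 libraries labelled MlklKO had 12.5, 4.83 and 2.80 CPM, against 14.3 to 17.7 CPM in WT. The groups were separate on CD-LFD and CD-HFD, but the library labelled MlklKO CD-HFD replicate 1, at 12.5 CPM, lay far closer to WT than to the other two of its group. For mice on control chow the log2 difference from WT was -1.15 (SE 0.281, adjusted p = 0.00225), and for those on CD-LFD it was -1.71 (SE 0.277, adjusted p = 0.00016). For CD-HFD it was -1.29 (SE 0.292, adjusted p = 0.294), and -2.08 (adjusted p = 0.00105) without that library. The lowest levels in MlklKO are well above 0, and whether the remaining reads fall outside the deleted part was not tested.

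**Figure D1:**
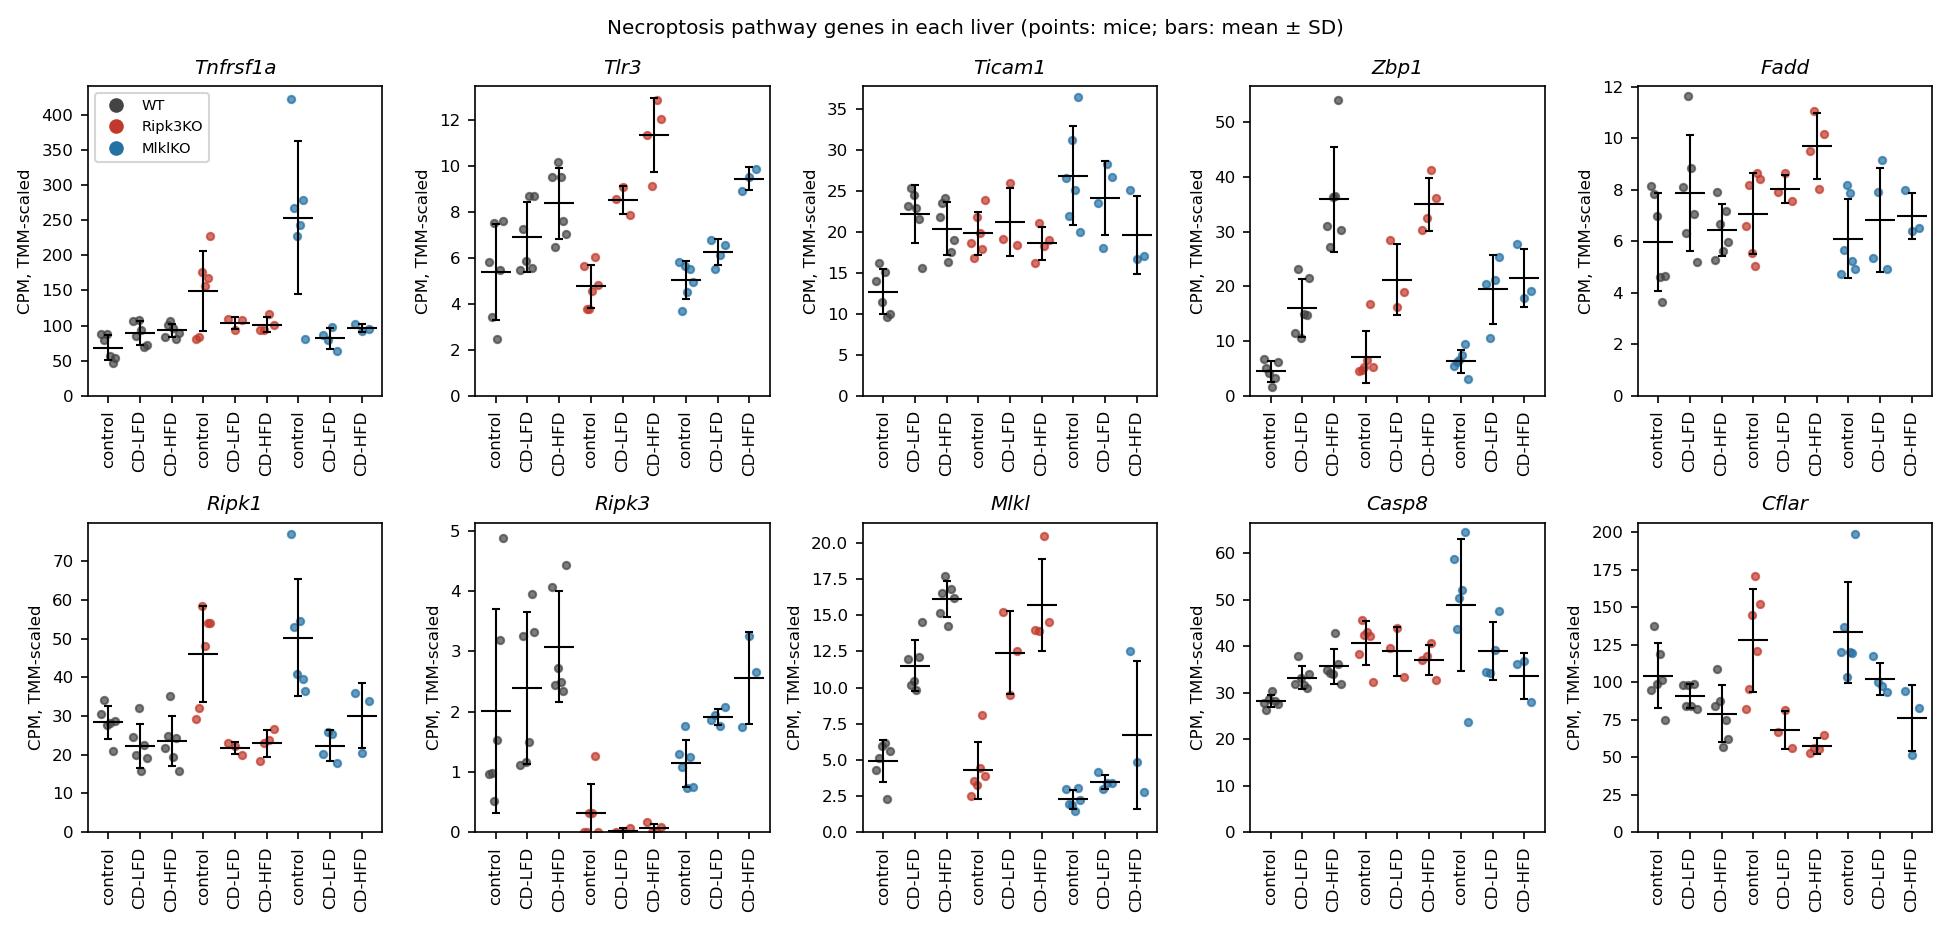
Level of each of the 10 genes in every liver, as TMM-scaled CPM on a linear axis from 0, by diet and genotype (grey WT, red Ripk3KO, blue MlklKO); points are mice and bars are the mean ± SD. Zbp1 and Mlkl stand higher on CD-HFD than on the control diet in WT and Ripk3KO without overlap, and Tnfrsf1a is highest in MlklKO on the control diet, where 1 mouse at 81.4 CPM stays in the WT range.

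A gene is called below when its p from the quasi-likelihood test of edgeR, adjusted by Benjamini-Hochberg over all tested genes, is under 0.05. In WT livers, CD-HFD raised 5 of the 10 genes and lowered none, where 47.7% of all tested genes were called and 23.5% were called higher. The 5 were Zbp1, Mlkl, Ticam1, Tlr3 and Casp8. The median log2 change was 0.52 over the 10 genes and -0.07 over all tested genes. CD-LFD raised 3 of the 10, Zbp1, Mlkl and Ticam1, and lowered none, where 27.7% of all genes were called and 13.7% called higher, with medians of 0.35 and -0.03. Only Zbp1 differed between CD-HFD and CD-LFD in WT, 1 of 10, where 21.1% of all genes were called and 13.7% called higher. The shares called in either direction, 5 in 10 and 3 in 10, were thus close to those of all genes. All the calls among the 10 were higher, while those of all genes on either diet against the control diet were split almost evenly between higher and lower. In bulk liver RNA, fewer cells of a type and less RNA per cell cannot be told apart.

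In Ripk3KO livers, CD-HFD raised Mlkl, Zbp1 and Tlr3 and lowered Ripk1, Cflar and the few remaining counts of Ripk3, which made 6 of 10 beside 46.3% of all genes (24.6% higher and 21.7% lower). In MlklKO livers it raised Mlkl, Zbp1 and Tlr3 and lowered Ripk1, Casp8, Cflar, Ticam1 and Tnfrsf1a, 8 of 10 beside 45.2% of all genes (24.9% higher and 20.3% lower). CD-LFD raised Mlkl, Zbp1 and Tlr3 and lowered Ripk1 and Cflar in Ripk3KO (5 of 10, against 24.1% of all genes), and in MlklKO it raised Zbp1 and lowered Ripk1 and Tnfrsf1a (3 of 10, against 37.9%). The diet comparisons of 1 genotype share their control mice. These splits depend on TMM scaling. Scaled by library size alone, the median over all genes on CD-HFD moved from -0.07 to 0.43 in WT, from -0.05 to 0.49 in Ripk3KO and from -0.04 to 0.49 in MlklKO. The genes called higher and lower on CD-HFD went from 3496 and 3586 to 6813 and 1020 in WT, from 3657 and 3227 to 6870 and 737 in Ripk3KO, and from 3699 and 3019 to 6364 and 727 in MlklKO. On CD-LFD in WT they went from 2040 and 2077 to 4142 and 737. Of the 10, the split under that scaling was 8 higher and 0 lower in WT, 6 and 1 in Ripk3KO, and 5 and 1 in MlklKO.

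**Figure D2:**
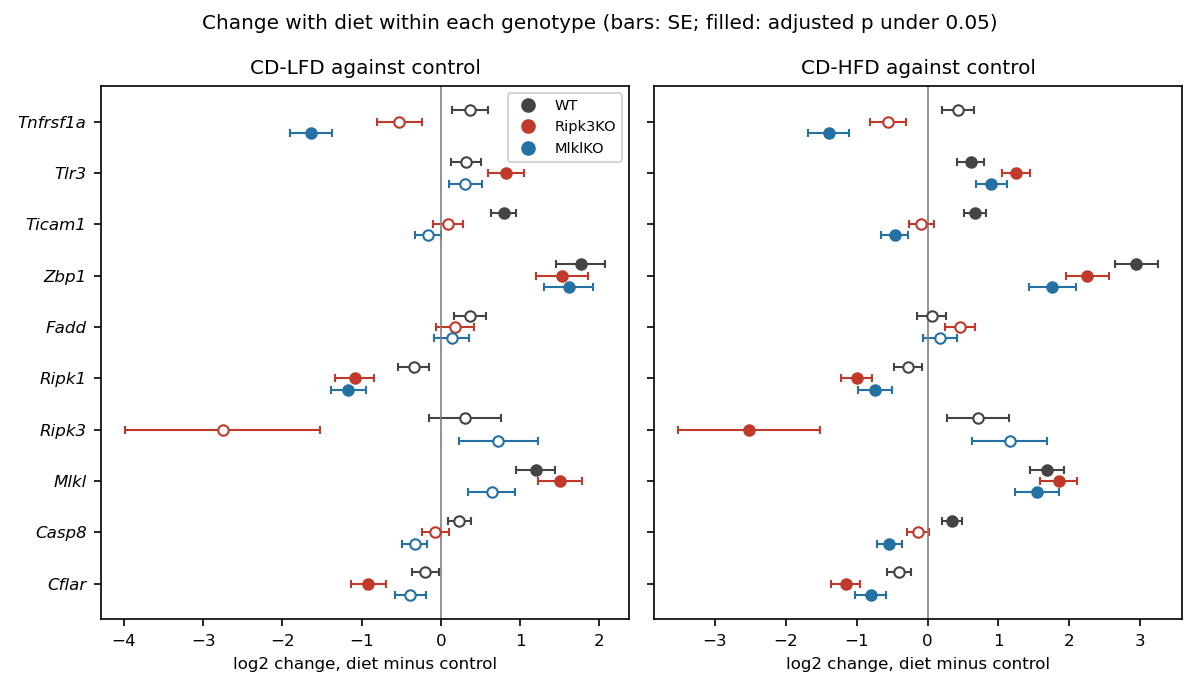
Log2 change of each gene on CD-LFD (left) and CD-HFD (right) against the control diet within each genotype, with bars for the SE; filled points have an adjusted p under 0.05. Zbp1 lies to the right of 0 in all 6 comparisons and is filled in each, and the points of Ripk1 and Cflar lie to the left in all 6, filled for Ripk1 in the 4 knockout comparisons.

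Zbp1 changed more with diet than Tlr3, the other nucleic acid sensor of the 10, in each genotype. It encodes the Z-nucleic acid sensor, itself an interferon-induced gene. In WT its lowest, median and highest levels were 1.54, 4.61 and 6.63 CPM on the control diet, 10.5, 14.8 and 23.2 CPM on CD-LFD, and 27.3, 33.7 and 54.1 CPM on CD-HFD. The 3 WT groups did not overlap. CD-LFD gave a log2 change of 1.77 (SE 0.306, adjusted p = 3.17e-05), CD-HFD gave 2.95 (SE 0.305, adjusted p = 1.70e-10), and CD-HFD exceeded CD-LFD by 1.18 (SE 0.263, adjusted p = 0.000838).

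In the knockouts Zbp1 rose as well. The 4 Ripk3KO CD-HFD libraries had 30.3, 32.5, 41.4 and 36.1 CPM and the 6 Ripk3KO control libraries 4.47 to 16.8 CPM, with a median of 5.25 CPM. The 3 libraries labelled MlklKO CD-HFD had 27.7, 17.9 and 19.2 CPM and the MlklKO control libraries 2.98 to 9.38 CPM. No CD-HFD library of either knockout reached down to its control group. The log2 change on CD-HFD was 2.26 (SE 0.301, adjusted p = 6.18e-08) in Ripk3KO and 1.76 (SE 0.328, adjusted p = 2.66e-05) in MlklKO. The difference of these changes from that of WT was -0.69 (SE 0.430, adjusted p = 0.605) for Ripk3KO and -1.19 (SE 0.458, adjusted p = 0.133) for MlklKO, neither past the threshold. On CD-HFD itself the log2 difference of Zbp1 between MlklKO and WT was -0.74 (95% interval -1.40 to -0.08, adjusted p = 0.587). Of the 3 MlklKO libraries, 2 lay under every WT library. The remaining mouse, at 27.7 CPM, was replicate 1, whose Mlkl level was closer to WT than to its own group. Leaving out this mouse and Ripk3KO control replicate 5 gave a difference of -0.97 from WT, still not called (adjusted p = 0.700). The CD-HFD change in MlklKO was then 1.53 (adjusted p = 0.000155).

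Tlr3 encodes the endosomal sensor of double-stranded RNA. In WT it stood at 2.46, 5.64 and 7.58 CPM (lowest, median, highest) on the control diet and at 6.45, 8.53 and 10.1 CPM on CD-HFD. The groups overlapped, and the change was 0.61 (SE 0.188, adjusted p = 0.00689). When only these groups were fitted the change was about as large, at 0.63, but not called (adjusted p = 0.0678). Among the Dbp-side libraries alone the change was 1.46 (adjusted p = 5.81e-05). In Ripk3KO the CD-HFD libraries had 11.3, 9.10, 12.9 and 12.03 CPM against 3.75 to 6.01 CPM on the control diet, a change of 1.25 (SE 0.200, adjusted p = 2.16e-06). In MlklKO they had 8.88, 9.53 and 9.86 CPM against 3.69 to 5.82 CPM, a change of 0.90 (SE 0.218, adjusted p = 0.000764). Both knockouts were separated from their own controls. CD-LFD raised Tlr3 in Ripk3KO by 0.82 (SE 0.224, adjusted p = 0.00663), and the values for WT (0.32, adjusted p = 0.465) and MlklKO (0.31, adjusted p = 0.231) did not pass.

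Tnfrsf1a encodes TNF receptor 1, and per exon length it was the most abundant of the 10 in every group. On the control diet its lowest, median and highest levels were 47.0, 68.2 and 87.5 CPM in WT, 80.3, 162 and 227 CPM in Ripk3KO, and 81.4, 256 and 423 CPM in MlklKO. Of the Ripk3KO mice 4 of 6, and of the MlklKO mice 5 of 6, stood above every WT mouse. The difference from WT was 1.11 (SE 0.231, adjusted p = 0.00247) in Ripk3KO and 1.88 (SE 0.234, adjusted p = 2.49e-07) in MlklKO. Among Dbp-side libraries, which leave 2 WT control mice, these differences were 1.13 (adjusted p = 0.126) and 1.91 (adjusted p = 0.00144). When only the compared groups were fitted, the Ripk3KO difference was about as large, at 1.08, but not called (adjusted p = 0.0900).

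On the other diets Tnfrsf1a did not differ by genotype beyond the threshold. On CD-HFD its level was 81.4 to 106 CPM in WT, 94.2, 93.4, 116 and 100.4 CPM in Ripk3KO, and 103, 91.9 and 94.5 CPM in MlklKO. On CD-LFD it was 69.2 to 108 CPM in WT, 109, 93.0 and 108 CPM in Ripk3KO, and 86.6, 79.4, 97.4 and 63.0 CPM in MlklKO. The groups overlapped on both diets, and the intervals of the difference from WT on CD-HFD ran from -0.39 to 0.63 for Ripk3KO and from -0.51 to 0.61 for MlklKO. Within MlklKO, Tnfrsf1a fell by 1.40 (SE 0.295, adjusted p = 0.000153) on CD-HFD and by 1.63 (SE 0.267, adjusted p = 1.10e-05) on CD-LFD on the log2 scale. In WT the values were 0.43 (adjusted p = 0.119) and 0.37 (adjusted p = 0.229). The WT value on CD-HFD was called when scaled by library size alone (0.93, adjusted p = 0.000574) and in a fit of only the compared groups (0.46, adjusted p = 0.0458), and was 0.25 (adjusted p = 0.401) without WT control replicates 5 and 6. The diet change in MlklKO differed from that in WT by -1.83 (SE 0.370, adjusted p = 0.00386) on CD-HFD and by -2.01 (SE 0.348, adjusted p = 0.000359) on CD-LFD.

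Of the adaptors, Ticam1 encodes TRIF, which links TLR3 to RIPK1 and RIPK3. In WT it stood at 9.59, 12.7 and 16.1 CPM (lowest, median, highest) on the control diet, 15.6, 23.0 and 25.4 CPM on CD-LFD and 16.3, 20.4 and 24.1 CPM on CD-HFD. The CD-HFD libraries lay above every control library, and 1 CD-LFD library fell within the control range. CD-LFD changed it by 0.80 (SE 0.160, adjusted p = 0.000234) and CD-HFD by 0.67 (SE 0.160, adjusted p = 0.000571). The latter value was 0.37 (adjusted p = 0.179) among Dbp-side libraries, and the CD-LFD value among Arntl-side libraries was 0.98 (adjusted p = 0.00418).

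In the knockouts on the control diet, Ticam1 already stood at 16.8, 19.2 and 23.8 CPM (Ripk3KO) and 19.99, 25.8 and 36.4 CPM (MlklKO). All 12 of these knockout mice were above all 6 WT mice. The difference from WT was 0.63 (SE 0.162, adjusted p = 0.0171) in Ripk3KO and 1.07 (SE 0.161, adjusted p = 4.56e-06) in MlklKO. The Ripk3KO call was lost without WT control replicate 6 (adjusted p = 0.0553) and among Dbp-side libraries (0.34, adjusted p = 0.502), where the MlklKO value was 0.81 (adjusted p = 0.0156). On CD-HFD, Ticam1 was at 16.1, 21.1, 18.3 and 18.9 CPM in Ripk3KO and at 25.1, 16.7 and 17.1 CPM in MlklKO, both overlapping WT. The CD-HFD change in MlklKO was -0.46 (SE 0.190, adjusted p = 0.0442), a call lost without MlklKO control replicate 1, 3 or 5 or MlklKO CD-HFD replicate 2 or 4 (log2 values of -0.68 to -0.35 without 1 mouse) and turned to 0.06 (adjusted p = 0.813) by scaling on library size alone. It differed from the WT change by -1.13 (SE 0.249, adjusted p = 0.007), and by -0.96 (SE 0.234, adjusted p = 0.00832) on CD-LFD. Among Dbp-side libraries the CD-HFD difference was -0.87 (adjusted p = 0.0705).

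Fadd, the adaptor that brings caspase-8 to death receptors, was called by edgeR in none of the 17 comparisons, with 2 at an unadjusted p under 0.05, and by DESeq2 in 1. Its level was 3.65, 5.81 and 8.14 CPM (lowest, median, highest) in WT on the control diet and 5.28, 6.32 and 7.92 CPM on CD-HFD, and the groups overlapped. The interval of the CD-HFD change in WT was -0.35 to 0.47 around 0.06. The 4 Ripk3KO CD-HFD libraries, at 9.49, 11.1, 8.04 and 10.2 CPM, lay above every WT CD-HFD library, with a difference of 0.59 (SE 0.210) and an adjusted p of 0.290.

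Ripk1 encodes the scaffold kinase of the TNF receptor complex. On the control diet it stood at 21.0, 28.4 and 34.2 CPM (lowest, median, highest) in WT, 29.3, 51.1 and 58.3 CPM in Ripk3KO and 36.4, 47.0 and 76.9 CPM in MlklKO. All MlklKO mice and 4 of the 6 Ripk3KO mice exceeded the highest WT mouse. The difference from WT was 0.69 (SE 0.195, adjusted p = 0.0302) in Ripk3KO and 0.81 (SE 0.195, adjusted p = 0.00187) in MlklKO. The Ripk3KO call was lost without WT control replicate 3, 5 or 6 or Ripk3KO control replicate 3, 4, 5 or 6, with adjusted p up to 0.0985. Among Dbp-side libraries these were 0.56 (adjusted p = 0.332) and 0.70 (adjusted p = 0.0828).

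On CD-HFD, Ripk1 stood at 18.3, 23.0, 23.8 and 26.5 CPM in Ripk3KO and at 36.0, 20.5 and 33.9 CPM in MlklKO, below all control mice of the same genotype. It fell by 1.002 (SE 0.219, adjusted p = 0.000233) in Ripk3KO and by 0.74 (SE 0.241, adjusted p = 0.0114) in MlklKO on the log2 scale. Scaled by library size alone, these were -0.47 (adjusted p = 0.0571) and -0.21, neither called. Without MlklKO CD-HFD replicate 2 the MlklKO call was lost as well (adjusted p = 0.0876). On CD-LFD the log2 change was -1.09 (SE 0.248, adjusted p = 0.00133) in Ripk3KO and -1.17 (SE 0.222, adjusted p = 9.53e-05) in MlklKO. In WT the CD-HFD value was -0.28 (adjusted p = 0.247).

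Ripk3 in animals that carry the gene did not pass in any diet comparison with all mice and TMM scaling. In WT the CD-HFD change was 0.71 (SE 0.440, adjusted p = 0.185), and the control mice spread from 0.511 to 4.89 CPM. WT control replicates 5 and 6, at 3.20 and 4.89 CPM, were the highest of that group. Without replicate 6 the change was 1.30 (adjusted p = 0.0181), and without both it was 1.68 (adjusted p = 0.00369). Scaled by library size alone, with all mice, it was 1.19 (adjusted p = 0.0319). In MlklKO the CD-HFD libraries had 1.74, 3.26 and 2.67 CPM and the control libraries 0.729 to 1.76 CPM, a change of 1.16 (SE 0.527, adjusted p = 0.0694). Within Ripk3KO the fitted change on CD-HFD was -2.52 (SE 0.998, adjusted p = 0.0359), which rests on 13 against 2 counts. It was lost without the library labelled Ripk3KO control replicate 5 (-1.28, adjusted p = 0.369), Ripk3KO CD-HFD replicate 2, replicate 3 or replicate 5.

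Mlkl rose with diet in mice that carry it. In WT it stood at 2.28, 5.38 and 6.15 CPM (lowest, median, highest) on the control diet, 9.85, 11.2 and 14.5 CPM on CD-LFD and 14.3, 16.4 and 17.7 CPM on CD-HFD. Every mouse on either CD diet was above every control mouse. CD-LFD changed it by 1.20 (SE 0.245, adjusted p = 0.000301), CD-HFD by 1.69 (SE 0.244, adjusted p = 2.67e-07), and CD-HFD exceeded CD-LFD by 0.49 (SE 0.218, adjusted p = 0.111). In Ripk3KO, Mlkl stood at 2.53 to 8.10 CPM on the control diet, at 15.2, 9.49 and 12.5 CPM on CD-LFD and at 13.98, 13.9, 20.5 and 14.5 CPM on CD-HFD. Both CD groups lay above every control mouse of this genotype, with changes of 1.51 (SE 0.282, adjusted p = 0.000129) and 1.85 (SE 0.257, adjusted p = 1.46e-07). The CD-HFD change in Ripk3KO differed from that in WT by 0.16 (95% interval -0.56 to 0.88, adjusted p = 0.929).

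The Mlkl reads left in MlklKO changed by 1.54 (SE 0.309, adjusted p = 7.59e-05) on CD-HFD. Without the library labelled MlklKO CD-HFD replicate 1 the change was 0.75 (adjusted p = 0.0523).

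Casp8 and Cflar encode caspase-8 and cFLIP, the brakes on the pathway. Casp8 in WT stood at 26.4, 28.1 and 30.4 CPM (lowest, median, highest) on the control diet and at 31.9, 34.5 and 42.9 CPM on CD-HFD. The groups did not overlap, and the change was 0.34 (SE 0.141, adjusted p = 0.0442). That call was lost without WT control replicate 1, 2, 3, 5 or 6 or WT CD-HFD replicate 1, 2, 4 or 5, with adjusted p up to 0.118, and among Dbp-side libraries (0.39, adjusted p = 0.174). Scaled by library size alone, with all mice, the change was 0.83 (adjusted p = 2.96e-06). On the control diet Casp8 was at 32.2, 42.4 and 45.7 CPM in Ripk3KO and at 23.7, 51.2 and 64.6 CPM in MlklKO. All Ripk3KO mice and 5 of 6 MlklKO mice were above every WT mouse. The difference from WT was 0.53 (SE 0.142, adjusted p = 0.0223) in Ripk3KO and 0.79 (SE 0.142, adjusted p = 6.60e-05) in MlklKO. Among Dbp-side libraries these were 0.53 (adjusted p = 0.281) and 0.81 (adjusted p = 0.0202). The Ripk3KO call was also lost without replicate 3 or replicate 4 of that group.

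On CD-HFD, Casp8 in MlklKO stood at 36.2, 36.8 and 28.0 CPM, within the range of its controls. Its change was -0.54 (SE 0.173, adjusted p = 0.0101), lost without MlklKO CD-HFD replicate 4 (adjusted p = 0.078) and at -0.01 under scaling by library size alone. It differed from the WT change by -0.88 (SE 0.224, adjusted p = 0.0187), and by -0.96 (adjusted p = 0.0592) among Dbp-side libraries. That difference, too, was not called without MlklKO CD-HFD replicate 4 (adjusted p = 0.0817).

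Cflar stood at 74.8, 100.2 and 138 CPM (lowest, median, highest) in WT on the control diet and at 57.0, 79.4 and 109 CPM on CD-HFD. The groups overlapped, with a change of -0.40 (SE 0.172, adjusted p = 0.0524) that became 0.11 under scaling by library size alone and -0.69 (adjusted p = 0.0222) among Dbp-side libraries. It passed without WT control replicate 6, WT CD-HFD replicate 2 or WT CD-HFD replicate 3, with adjusted p as low as 0.0159. In Ripk3KO it stood at 82.4 to 171 CPM on the control diet and at 52.9, 56.1, 55.3 and 64.9 CPM on CD-HFD. In MlklKO it stood at 104 to 199 CPM on the control diet and at 94.4, 51.8 and 83.2 CPM on CD-HFD. Both knockouts were separated from their controls. Cflar fell by 1.16 (SE 0.199, adjusted p = 6.95e-06) in Ripk3KO and by 0.80 (SE 0.217, adjusted p = 0.00239) in MlklKO on the log2 scale, and by 0.91 (SE 0.219, adjusted p = 0.0022) on CD-LFD in Ripk3KO. Under scaling by library size alone the MlklKO value was -0.28 and was not called.

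**Figure D3:**
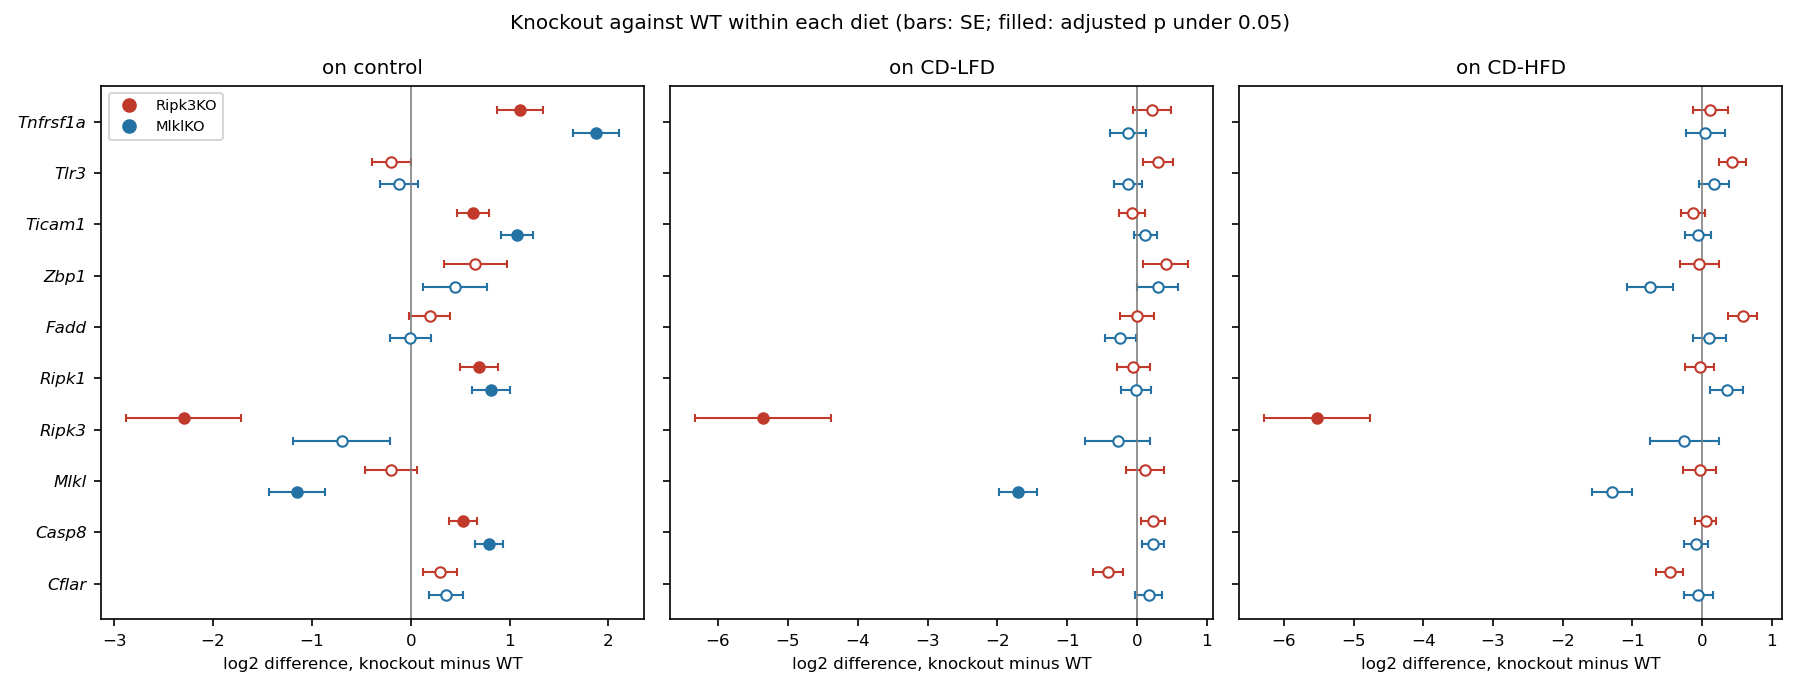
Log2 difference of each gene between knockout and WT on the control diet, CD-LFD and CD-HFD, with bars for the SE; filled points have an adjusted p under 0.05. Ripk1, Casp8, Ticam1 and Tnfrsf1a lie to the right of 0 and are filled for both knockouts in the left panel, and in the other panels the only filled points are the targeted genes, Ripk3 on both diets and Mlkl on CD-LFD.

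Between genotypes, most calls among the 10 genes were on the control diet, where the groups held 6 mice each. On the control diet Ripk1, Casp8, Ticam1 and Tnfrsf1a were higher in Ripk3KO than in WT, and Ripk3 was lower, 5 of 10 where 4.47% of all genes were called and 2.25% called higher. Ripk1, Casp8, Ticam1 and Tnfrsf1a were also higher in MlklKO than in WT, and Mlkl was lower, 5 of 10 where 27.1% of all genes were called. Both comparisons share the WT control mice. The count for Ripk3KO was not stable: it was 0 in a fit of just these 2 groups, where Ripk3 did not pass the filter on low counts and was not tested, 0 among Dbp-side libraries, 1 with clock side as a covariate, and 2 without WT control replicate 6. The log2 differences stayed about as large in the fit of these 2 groups, at 0.65 for Ripk1, 0.49 for Casp8 and 0.60 for Ticam1, and with the covariate, at 0.81, 0.50 and 0.56. The count for MlklKO was 4 among Dbp-side libraries, without Ripk1. On CD-LFD only the targeted gene was called in each knockout, 1 of 10, where 1.10% of all genes were called in Ripk3KO and 2.56% in MlklKO. With clock side as a covariate neither call held, while the log2 differences stayed about as large, at -5.07 for Ripk3 (adjusted p = 0.162, -5.36 without the covariate) and -1.75 for Mlkl (adjusted p = 0.188, -1.71 without it). On CD-HFD, Ripk3 was the 1 gene of 10 called in Ripk3KO (0.377% of all genes). In MlklKO, edgeR called 0 of the 10 and 0% of all genes on CD-HFD, with 2 of the 10 and 1246 of all genes at an unadjusted p under 0.05, and DESeq2 called 1 of the 10, Mlkl. Without the library labelled MlklKO CD-HFD replicate 1, edgeR called Mlkl as well.

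The change with diet differed from WT for none of the 10 genes in Ripk3KO by edgeR (0.0269% of all genes on CD-LFD and 0.478% on CD-HFD), with 5 and 7 of the 10 at an unadjusted p under 0.05, and DESeq2 called 0 on both diets. A dependence of the Ripk3KO differences on diet was thus not shown. In MlklKO the change with diet differed from WT for 2 of 10 on CD-LFD, Ticam1 and Tnfrsf1a (8.45% of all genes, 4.08% lower). On CD-HFD it differed for 3 of 10, Casp8, Ticam1 and Tnfrsf1a (4.12%, 2.54% lower). All 5 differences were negative. Without MlklKO control replicate 6, whose Tnfrsf1a level of 81.4 CPM was the lowest of its group, Ripk1 and Casp8 were called on CD-LFD too, which made 4. Among Dbp-side libraries only Tnfrsf1a was called on CD-HFD.

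Levels of different genes were compared per kilobase of exon (GENCODE M21 lengths). In WT on the control diet, Tnfrsf1a stood at 26.5 ± 6.98 CPM per kilobase (SD, n = 6), Casp8 at 9.75 ± 0.461, Cflar at 8.24 ± 1.70, Ticam1 at 4.24 ± 0.914, Ripk1 at 3.40 ± 0.519, Mlkl at 2.13 ± 0.629, Fadd at 1.53 ± 0.488, Zbp1 at 1.26 ± 0.540, Tlr3 at 1.03 ± 0.401 and Ripk3 at 0.878 ± 0.738. Tnfrsf1a stood apart from the rest, and Fadd, Zbp1, Tlr3 and Ripk3 lay within their spreads of each other, as did Casp8 and Cflar. On CD-HFD, Zbp1 reached 10.2 ± 2.72 CPM per kilobase, within its spread of Casp8 at 12.3 ± 1.32, and Mlkl reached 7.0 ± 0.529, beside Ticam1 at 6.81 ± 1.08. Ripk3, at 1.34 ± 0.403, lay within its spread of Tlr3 at 1.61 ± 0.296 and Fadd at 1.65 ± 0.255.

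Over the 18 WT libraries, the genes most like Zbp1 by Spearman correlation of log2 CPM were the interferon-induced genes Ifit2 (0.975), Usp18 (0.965) and Ifit3 (0.963). The 3 most like Mlkl were Tmem119 (0.959), Cxcl16 (0.957) and Tnc (0.955). Those most like Ripk3 were Samd1 (0.979), Ankrd10 (0.930) and Fhod1 (0.928), and those most like Tnfrsf1a were Tcf7 (0.905), Asap1 (0.903) and BC029722 (0.895). For Tlr3 the values were lower, with Rufy2 (0.866), Tm4sf1 (0.829) and Flvcr2 (0.818). These are descriptions over mice on 3 diets, which share the diet differences and their depth.

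Markers of several cell types moved with the diets. All 9 monocyte and macrophage markers rose on CD-HFD in each genotype. Their summed level ran from 86.1 to 107 CPM in WT on the control diet, 175 to 328 CPM on CD-LFD and 959 to 2641 CPM on CD-HFD. It ran from 51.5 to 178 CPM and 1337 to 1851 CPM on the control diet and CD-HFD in Ripk3KO, and from 68.3 to 110 CPM and 1440 to 2425 CPM in MlklKO. None of these 9 markers was at 0 throughout a group. In WT on CD-HFD, 6 of 7 tested T and NK cell markers, 4 of 6 stellate cell markers and 5 of 5 cholangiocyte markers also rose. There 7 of 7 hepatocyte, 3 of 5 Kupffer cell and 5 of 6 endothelial markers fell. Of all genes, 47.7% were called in that comparison and 23.5% called higher. The median summed level of the neutrophil markers was 4.51 CPM on the control diet and 21.7 CPM on CD-HFD in WT. That of the B cell markers was 53.6 and 24.2 CPM, in overlapping groups. The part of these cells in the diet changes of Zbp1, Mlkl, Tlr3, Ticam1, Casp8, Ripk1 and Cflar was not tested. On the control diet, where Ripk1, Casp8, Ticam1 and Tnfrsf1a differed between genotypes, edgeR called 0 of the 9 macrophage markers in either knockout, with 1 in each at an unadjusted p under 0.05, and DESeq2 called 0. At that unadjusted p stood 2965 of all tested genes in Ripk3KO and 5780 in MlklKO. Of 7 hepatocyte markers, 1 was called higher in each knockout, where 4.47% of all genes were called in Ripk3KO and 27.1% in MlklKO. In MlklKO on that diet 3 of 4 B cell markers fell, and 1 of 3 neutrophil and 2 of 5 cholangiocyte markers rose. Of 6 endothelial markers 2 rose and 1 fell. Their part was not tested either.

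**Figure D4:**
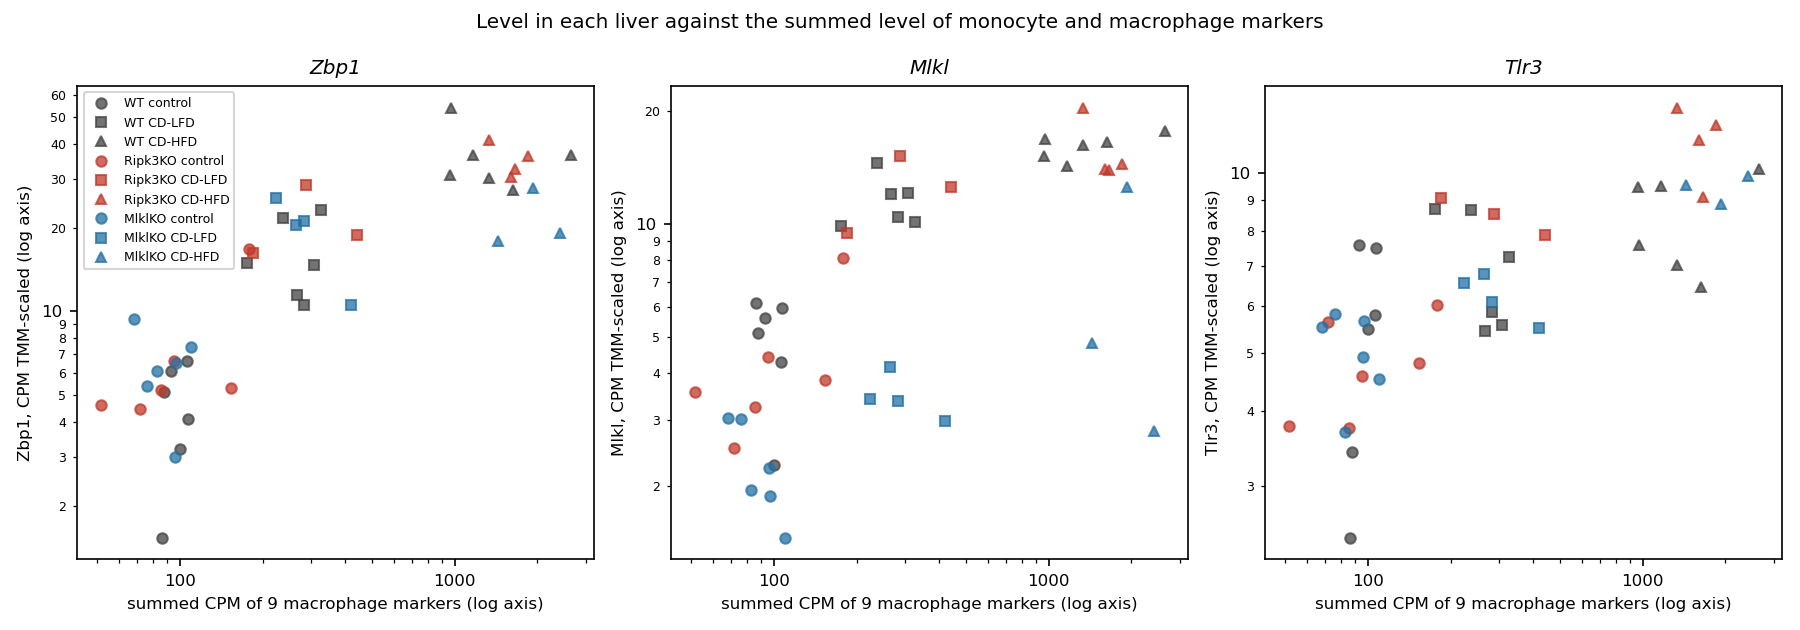
Level of Zbp1, Mlkl and Tlr3 in each liver (TMM-scaled CPM, log axis) against the summed CPM of 9 monocyte and macrophage markers (log axis); symbols give the diet and colours the genotype. CD-HFD libraries lie to the right, at 959 CPM or more, and MlklKO libraries lie low for Mlkl, except the library labelled MlklKO CD-HFD replicate 1 at 12.5 CPM.

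Partners of the 10 genes were followed in 5 lists with 67 genes, of which 66 were tested. For CD-HFD in WT, 47.7% of all genes were called and 23.5% called higher, and a count near these shares says nothing particular of a list. Of 11 death receptors and ligands, 7 rose and 1 fell in WT on CD-HFD, with a median log2 change of 0.52. Tnfrsf10b, the TRAIL receptor, had a mean of 0.462 ± 0.494 CPM (SD, n = 6) on the control diet and 4.24 ± 1.05 CPM on CD-HFD, a change of 3.01 (SE 0.531, adjusted p = 9.67e-06). Ifngr1, a chain of the interferon-gamma receptor, rose by 1.73 (SE 0.193, adjusted p = 9.95e-10), and Ifnar2, a chain of the type I interferon receptor, fell by 0.33 (SE 0.1002, adjusted p = 0.00568). On CD-HFD the list had 6 rises and 1 fall in Ripk3KO, where 46.3% of all genes were called, and 6 and 2 in MlklKO, where 45.2% were.

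Of 21 checkpoints of the TNF receptor complex, 5 rose and 5 fell in WT on CD-HFD, close to the share of all genes, with a median of -0.08 that was close to theirs as well. Tnfaip3, which encodes the ubiquitin-editing enzyme A20, went from 2.33 ± 0.911 CPM to 17.0 ± 5.36 CPM (SD, n = 6), a change of 2.81 (SE 0.442, adjusted p = 1.34e-06), and its partner Tnip1 rose by 1.76 (SE 0.205, adjusted p = 2.89e-09). Chuk, an I-kappa-B kinase subunit, fell by 0.94 (SE 0.104, adjusted p = 7.55e-10), and Tab2, an adaptor of the TAK1 kinase, by 0.67 (SE 0.136, adjusted p = 7.59e-05). The list had 6 rises and 5 falls on CD-HFD in Ripk3KO, and 4 and 6 in MlklKO.

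Of 10 genes on the interferon and nucleic acid sensing side, 5 rose and 0 fell in WT on CD-HFD. Tlr7, a sensor of single-stranded RNA, rose by 3.44 (SE 0.462, adjusted p = 6.33e-08) from 0.407 ± 0.252 CPM. Of 11 genes of the apoptosis arm, 2 rose and 4 fell. Apaf1, the apoptosome scaffold, rose by 1.68 (SE 0.242, adjusted p = 2.48e-07) and the pore-forming Bak1 by 0.93 (SE 0.183, adjusted p = 5.26e-05), while Casp9, a caspase gene, fell by 0.57 (SE 0.239, adjusted p = 0.0463).

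Of 13 tested genes near MLKL, in membrane repair or among released alarmins, 5 rose and 3 fell. Axl, a receptor kinase of the TAM family, rose by 1.98 (SE 0.240, adjusted p = 7.30e-09) and the alarmin Il33 by 1.26 (SE 0.424, adjusted p = 0.013). Ppm1b, a phosphatase known to act on RIPK3, fell by 1.22 (SE 0.179, adjusted p = 3.38e-07) and the mitochondrial phosphatase Pgam5 by 0.76 (SE 0.164, adjusted p = 0.000161). On CD-LFD in WT, where 27.7% of all genes were called and 13.7% called higher, the rises and falls were 5 and 1 for death receptors, 5 and 2 for checkpoints, 2 and 0 for the interferon side, 2 and 1 for apoptosis, and 2 and 3 for the genes near MLKL.

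Some of these partners differed by genotype in mice on control chow. In MlklKO, 4 death receptor genes were higher and 1 was lower, and 5 checkpoint genes were higher and 3 lower, 5 of 11 and 8 of 21 where 27.1% of all genes were called. Tnfaip3 stood at 15.5 ± 15.03 CPM (SD, n = 6) against 2.33 ± 0.911 CPM, a difference of 2.66 (SE 0.448, adjusted p = 2.97e-05), with MlklKO mice spread from 3.13 to 44.6 CPM. Myd88, the adaptor of most Toll-like receptors, was 0.96 higher (SE 0.190, adjusted p = 0.000226), and Chmp4b, an ESCRT-III subunit, was 1.01 higher (SE 0.144, adjusted p = 2.24e-06). In Ripk3KO, where 4.47% of all genes were called, 1 death receptor gene, Fas, was higher by 0.73 (SE 0.151, adjusted p = 0.00234), and Myd88 by 0.78 (SE 0.190, adjusted p = 0.0113). The alarmin Il1a was lower in both, at -1.54 (SE 0.340, adjusted p = 0.00471) in Ripk3KO and -1.30 (SE 0.328, adjusted p = 0.0029) in MlklKO. On CD-LFD, edgeR called 0 of the 66 in Ripk3KO and 1 in MlklKO, where 1.10% and 2.56% of all genes were called. DESeq2 called 1 and 2. At an unadjusted p under 0.05 stood 9 and 10 of the 66, beside 1692 and 2320 of the 14862 tested genes. The 1 that edgeR called in MlklKO was Ikbkg, at -0.56 (SE 0.136, adjusted p = 0.015). It encodes NEMO, the regulatory subunit of the I-kappa-B kinase complex. On CD-HFD, edgeR called 0 of the 66 in either knockout against WT, near the shares of all genes, 0.377% in Ripk3KO and 0% in MlklKO. There 3 of the 66 in Ripk3KO and 5 in MlklKO had an unadjusted p under 0.05, beside 1297 and 1246 of all tested genes. DESeq2 called 1 of the 66 in Ripk3KO and 0 in MlklKO.

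**Figure D5:**
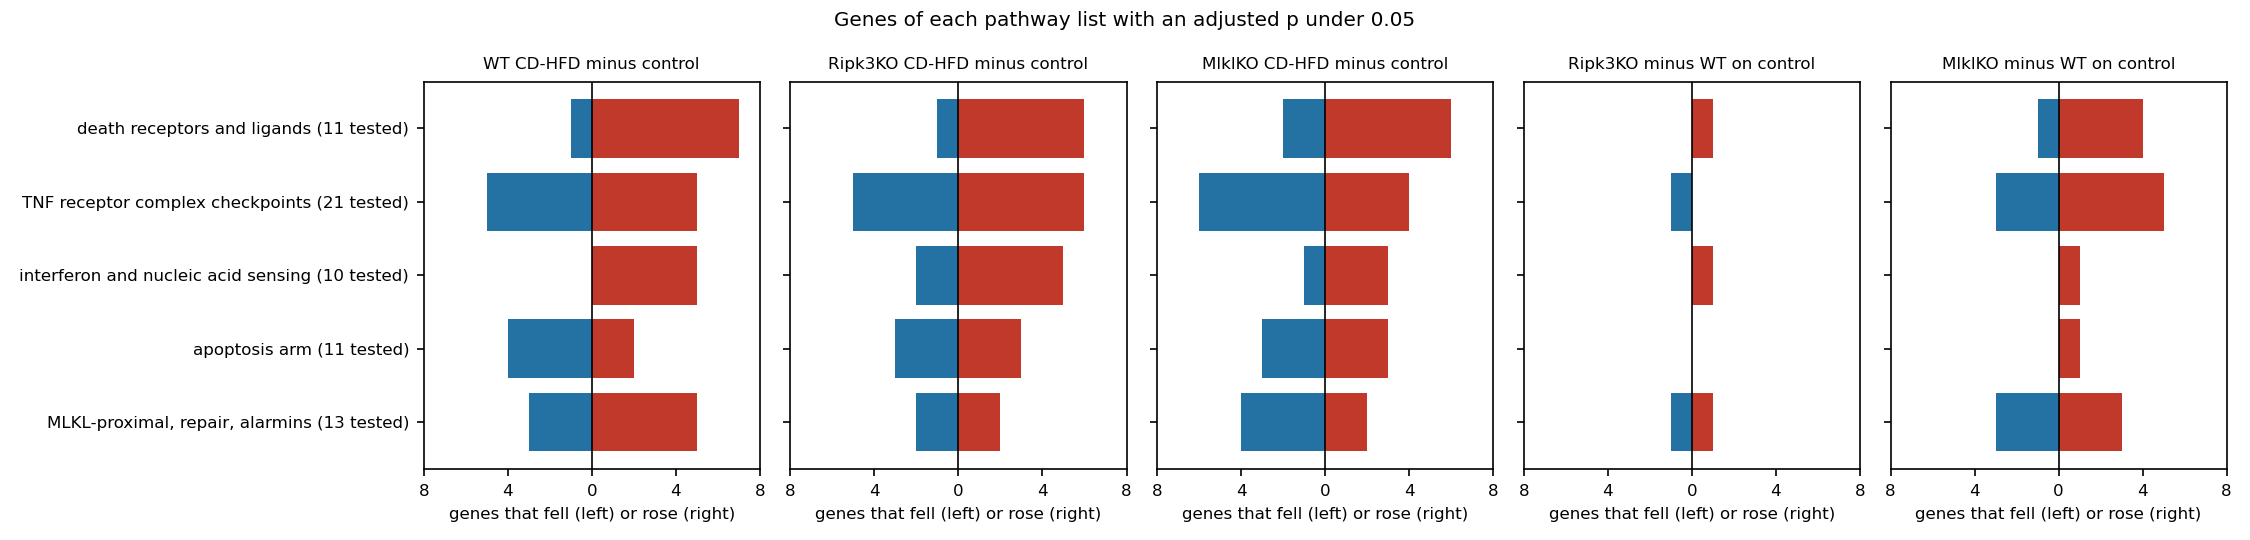
Number of genes in each of 5 pathway lists that rose (red, right) or fell (blue, left) at an adjusted p under 0.05, for CD-HFD against the control diet in each genotype and for each knockout against WT on the control diet. Death receptors and ligands show 7 rises and 1 fall in WT on CD-HFD, and Ripk3KO against WT shows at most 1 gene in each direction per list.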

How the data were processed

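Total liver RNA was sequenced from strand-specific libraries, 1 per mouse, per the labels' protocols. The authors deposited raw read counts per Ensembl gene, whole numbers that were not normalised, for 44 libraries. The submitters' processing notes name FastQC, STAR, HTSeq, edgeR and limma and the build GRCm39 (mm39), without versions or roles.

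Gene identifiers were paired with symbols through reference gene tables (34373 of 35249 matched). Genes were kept by filterByExpr (minimum count 10, 9 groups), which left 14862 genes with 99.8% of the counts. Libraries were scaled by TMM (factors 0.799 to 1.34). The edgeR (4.0.16, R 4.3.3) quasi-likelihood test was fitted over all 44 libraries with 1 mean per group, for 17 contrasts, with Benjamini-Hochberg adjustment within each contrast and a threshold of 0.05. The SE was taken as the size of the log2 change over the root of F, and a gene that passed is said to be called. The code was tested on simulated counts. Ratios of Ripk3 used pooled counts with exact intervals. Exon lengths and overlaps came from GENCODE M21 and promoters from RefSeq, both on GRCm38, so these do not share the build of the counts.

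The 10 genes and the 5 pathway and 9 marker lists were chosen with earlier results of these data known. Pathway genes were named by a rule: at most the 2 largest rises and 2 largest falls per list and contrast, called and with a mean log2 CPM of at least 1, of which those of the CD-HFD and control-diet comparisons are partly given. Some genes that this rule picks are not reported here. Alternatives were other size factors (RLE, library size only), no count filter, a robust fit, a replicate block, the clock side as a covariate, only the compared groups, DESeq2 (1.42.0), leaving out libraries, and fits of 1 clock side, which were added after seeing the data.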

Additional observations from a re-analysis of the deposited data

Results flagged for a closer look

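The 10 genes in the 7 groups of 4 or 6 mice gave 70 sets of values tested for a mouse far from the others. Of these, 6 had one, and chance gives about 1 in 20. The library labelled Ripk3KO control replicate 5 was far above its group in 3 genes: 1.26 CPM for Ripk3 (next 0.326, on 9 counts), 8.10 CPM for Mlkl (next 4.41) and 16.8 CPM for Zbp1 (next 6.62). Its summed macrophage marker level of 178 CPM was also the highest of its group. Mlkl in Ripk3KO CD-HFD replicate 3 was 20.5 CPM (next 14.5), Zbp1 in WT CD-HFD replicate 5 was 54.1 CPM (next 36.6), and Cflar in MlklKO control replicate 6 was 199 CPM (next 137).

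The change with diet differed between MlklKO and WT by an interaction term (edgeR) for Ticam1 (-0.956) and Tnfrsf1a (-2.01) on CD-LFD, and for Casp8 (-0.878), Ticam1 (-1.13) and Tnfrsf1a (-1.83) on CD-HFD, all on the log2 scale. In each case the gene was higher in MlklKO than in WT on the control diet, and on the CD diet no difference between these genotypes was called.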

How the results depend on the processing

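Of 382 alternative values for the 17 counts of called genes, 359 stayed within 1.5 times of the reported count. Of 1156 alternative values for 55 log2 changes, 1060 kept their direction and side of the threshold, 80 lost the threshold, 14 gained it and 2 reversed. Most of the alternative values in both sets came from fits that left out 1 mouse, which share nearly all their data with the main fit. These totals therefore say little of the other settings. With library size only, the counts became 8 for WT on CD-HFD, 7 for WT on CD-LFD, 2 for WT CD-HFD against CD-LFD, 3 for Ripk3KO against WT on the control diet, and 4 for the MlklKO interaction on CD-LFD, and the 2 reversals were Ticam1 in MlklKO on CD-HFD (0.058) and Cflar in WT on CD-HFD (0.11). With the clock covariate they became 2 for WT CD-HFD against CD-LFD, 1 for Ripk3KO against WT on the control diet, and 0 for either knockout against WT on CD-LFD. With only the compared groups they became 2 and 0 for the first 2 of these, and Ripk3 was not tested in the latter fit because it did not pass the filter on low counts there. For Ripk3KO against WT on the control diet, the count was 1 without WT control replicates 5 and 6, 3 without 2 libraries together, those labelled Ripk3KO control replicate 5 and MlklKO CD-HFD replicate 1, 0 among Dbp-side libraries, and 2 to 5 without 1 mouse (2 without WT control replicate 6, 3 without Ripk3KO control replicate 3 or replicate 4). For MlklKO against WT on CD-HFD it was 1 with DESeq2, 1 without both doubtful knockout libraries, and 0 to 1 without 1 mouse. The interaction counts were 1 for Ripk3KO on CD-HFD without WT control replicates 5 and 6 (Ripk3), 1 for MlklKO on CD-HFD among Dbp-side libraries, and 2 to 4 for MlklKO on CD-LFD without 1 mouse (4 without MlklKO control replicate 6). The causes were not tested.

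Replicate numbers did not pair the mice: deviations from the group mean of same-numbered mice had a median correlation of -0.01 over 146 pairs (-0.35 to 0.55). With a replicate block the counts were 5 for WT, 7 for Ripk3KO and 9 for MlklKO on CD-HFD, and no count moved by over 1.5 times. Depth limits Ripk3 most, at 46 counts over the 6 WT control libraries. No pair of libraries in a group was a duplicate (chi-square per degree of freedom at least 6.95).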
